A study of Mus musculus with 3 samples.

Results

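The thymocyte homing and egress genes described here are 7 of the 54838 genes listed in the deposited counts. They are the egress receptor *S1pr1*, its regulator *Klf2*, the egress antagonist *Cd69* and the chemokine receptors *Ccr7*, *Ccr4*, *Ccr9* and *Cxcr4*. They were chosen by name for their known roles in moving T cells through and out of the thymus, and not by any measured value. Every member matched 1 row of the counts and had UMIs in all 3 sections. The data were spatial transcriptomes of thymus sections from 3 female C57BL/6 mice. The 2 groups compared were *Trp53*-/- (KO), which carries the knockout in the germline and therefore in every cell of the thymus, and *Trp53*+/+ (WT). The KO group held the section labelled KO1134, from a mouse of 17 weeks, and the section labelled KO1308, from a mouse of 21 weeks. The WT group held the single section labelled WT1101, from a mouse of 17 weeks, so that 1 KO section differed from WT in age as well as in genotype. The sequencing figures that the study lists for the mouse KO1308 resemble the file labelled KO1134, so which file belongs to which KO mouse, and which KO mouse has the age of the WT mouse, is uncertain. Sections are named here by their labels. All mice were perfused with cold PBS under pentobarbital before collection. KO sections were permeabilised for slightly longer than the WT section, which cannot be told apart from genotype.

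Thymocytes are guided through the thymus by G protein-coupled receptors. CCR9 recognises CCL25, and CXCR4 recognises CXCL12, and both ligands are made by cortical epithelium, where immature thymocytes divide and rearrange their receptor genes. After positive selection, CCR7, which recognises CCL19 and CCL21, and CCR4, which recognises CCL17 and CCL22, guide thymocytes to the medulla. Mature thymocytes then leave along a gradient of sphingosine 1-phosphate (S1P), for which they need S1PR1. FOXO1 induces KLF2, KLF2 induces *S1pr1*, and CD69, which appears on the surface after receptor signalling, pulls S1PR1 inside the cell and so delays exit.

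In GRCm38 coordinates of the GENCODE annotation, *S1pr1* lies on chromosome 3 from 115710433 to 115715072, *Klf2* on chromosome 8 from 72319033 to 72321656 and *Cd69* on chromosome 6 from 129267325 to 129275436. *Ccr7* lies on chromosome 11 from 99144196 to 99155077, *Ccr4* on chromosome 9 from 114490316 to 114504916 and *Cxcr4* on chromosome 1 from 128588199 to 128592293. *Ccr9* lies on chromosome 9 from 123678439 to 123784330, a span that also holds *Slc6a20a* and *Lztfl1* on the opposite strand. Whether reads were assigned by strand is not given in the sources used here, so counts of *Ccr9* could include reads from these neighbours. Promoters of 300 bases, 250 before and 50 after the gene start given by RefSeq, were present for 4 of the 7 members in the RefSeq table for GRCm38.p6. Those of *Klf2* and *Ccr9* are printed because, of these 4 members, *Klf2* had the highest KO mean over WT in cortex and *Ccr9* the lowest. The RefSeq start of *Ccr9* lies inside the GENCODE span given above, downstream of the start of that span, so this window is the promoter of that start only. The *Klf2* promoter spans chr8:72318812-72319111 on the plus strand and the *Ccr9* promoter chr9:123766961-123767260 on the plus strand, both written 5′ to 3′ with matches of the GC box GGGCGG, on either strand, in capitals.
Klf2 promoter: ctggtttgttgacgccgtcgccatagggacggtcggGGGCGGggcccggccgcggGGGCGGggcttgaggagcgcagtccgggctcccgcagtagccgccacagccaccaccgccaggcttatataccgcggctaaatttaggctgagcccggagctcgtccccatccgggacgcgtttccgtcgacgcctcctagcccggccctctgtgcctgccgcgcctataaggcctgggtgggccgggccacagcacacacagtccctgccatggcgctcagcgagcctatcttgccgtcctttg
Ccr9 promoter: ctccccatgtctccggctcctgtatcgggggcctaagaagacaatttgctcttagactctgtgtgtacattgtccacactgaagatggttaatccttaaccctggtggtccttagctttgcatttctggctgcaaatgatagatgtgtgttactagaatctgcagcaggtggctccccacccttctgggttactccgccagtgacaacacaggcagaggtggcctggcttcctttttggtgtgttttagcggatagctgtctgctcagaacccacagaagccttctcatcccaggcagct
The *Klf2* promoter was 69.3% G and C, above 89.5% of all promoters in the table, and held GGGCGG 2 times. The *Ccr9* promoter was 51.3% G and C, above 44.2% of promoters, and held it 0 times. Of the other members with a promoter, *Cxcr4* held it 3 times and *Ccr4* 0 times. GGGCGG or its complement was found in 35.7% of 32851 promoters. CACCC, searched on both strands, was found once in each of the 4 promoters and in 57.5% of all, and no such match overlapped one of GGGCGG. The forkhead motif GTAAACA, searched on both strands, was found in none of the 4 and in 3.65% of all.

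The counts summed to 31237062 UMIs in KO1134, 21089885 in KO1308 and 41581477 in WT1101. Spots with barcodes were added up over squares of 27 µm, called bins, and those with at least 300 detected genes in a connected piece of tissue were kept. These numbered 12020, 15855 and 27100 bins in the same order, with medians of 2643, 889 and 1357 UMIs per bin. *Trp53* had 13.9 and 23.3 counts per 1000000 UMIs (CPM) in the cortex of KO1134 and KO1308 and 80.9 CPM in that of WT1101, so the order followed the labels, although UMIs of *Trp53* remained in both KO sections. Which part of the gene the knockout allele lacks is not given in the sources used here. The genotypes could not be compared by a statistical test with a single WT section, and the spread between mice can be read only from KO1134 beside KO1308. Intervals in parentheses are exact 95% intervals for counting error only. Bins of a section are not replicates. As each bin holds several cells, fewer cells of a type and less RNA per cell cannot be told apart.

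Each bin was placed in a zone from marker genes in the surrounding 7 × 7 bins, none of which was a member or a ligand of a member. Medulla had a raised share of 6 medullary epithelial genes, among them *Krt5* and *Aire*. Cortex had 3 cortical epithelial genes, among them *Psmb11*. The B-cell zone had more UMIs of *Cd79a*, *Cd79b* and *Ms4a1* than of 6 thymus genes. KO1134 had 5501 bins of cortex, 2875 of medulla and 1791 of B-cell zone. KO1308 had 7525, 4511 and 375, and WT1101 had 15268, 6732 and 0, so no KO over WT comparison was possible for the B-cell zone. The B-cell zone of KO1134 formed mainly an oval body beside the lobe, with 92.9 CPM of cortical and 19.0 CPM of medullary epithelial genes, whereas that of KO1308 lay mostly inside the medulla, with 161 and 361 CPM. The remaining bins met no zone's limits.

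**Figure D1:**
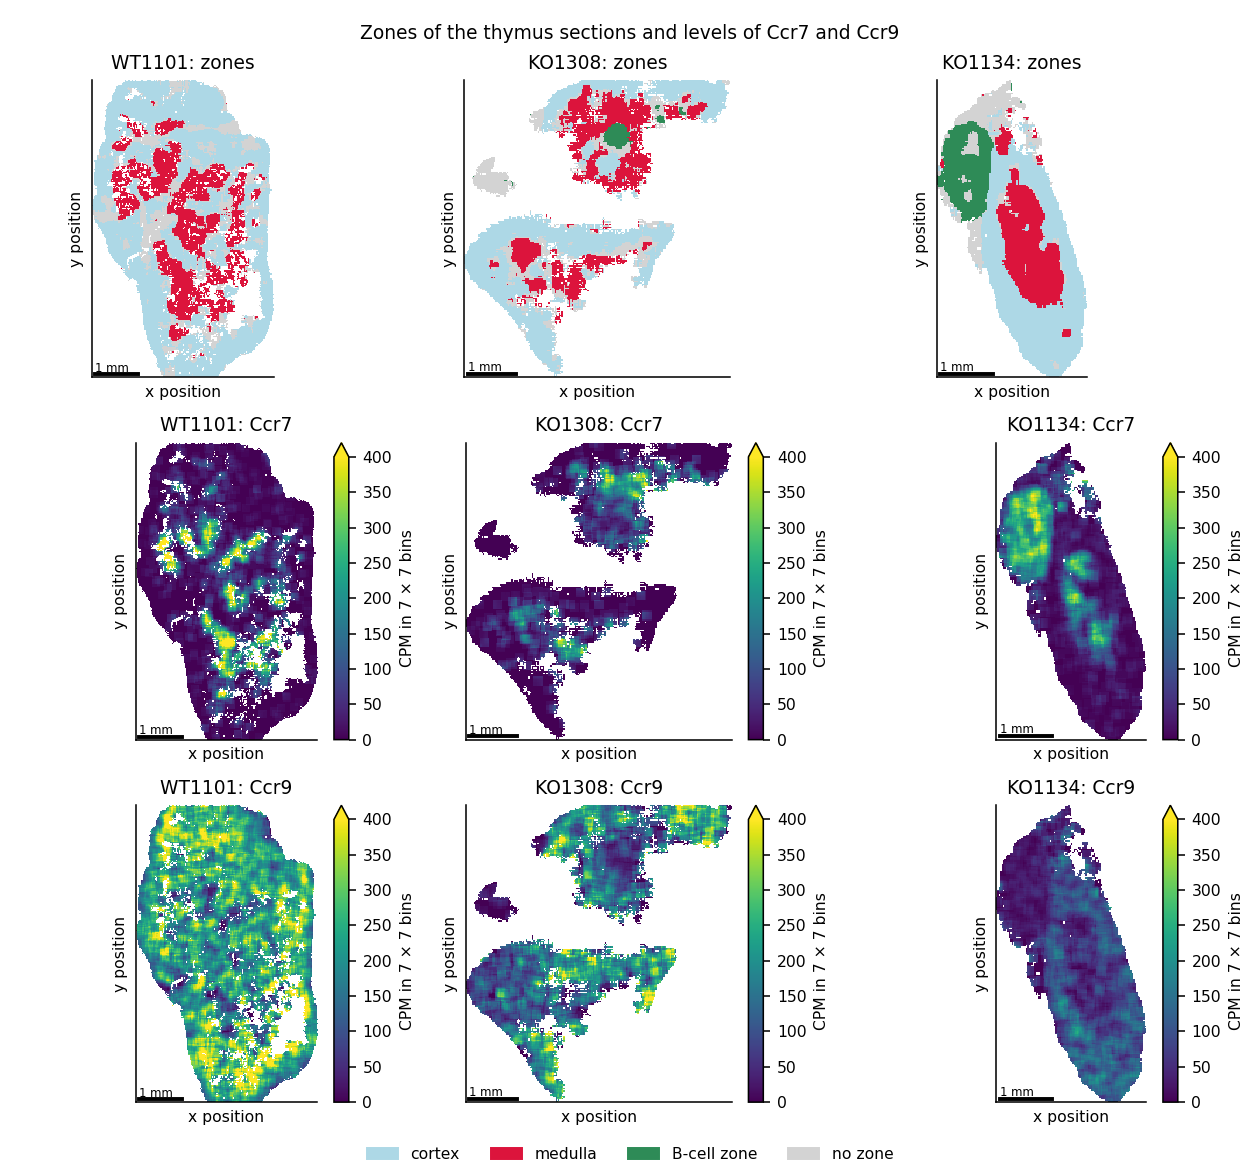
Zone of each 27 µm bin (top row) and CPM of Ccr7 (middle) and Ccr9 (bottom) in the surrounding 7 × 7 bins, plotted by x and y position in the 3 sections, with a scale bar in each panel and colours saturating at the top of the scale. Ccr7 was high in medulla and in the oval B-cell zone of KO1134, and Ccr9 was high across WT1101 and low in that B-cell zone (27.6 CPM).

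The cortex of the sections also differed in thymocyte genes that did not define it, which bears on every KO over WT value. The immature thymocyte list (*Rag1*, *Rag2*, *Arpp21*, *Ptcra*, *Dntt* and *Cd8b1*) had 782 CPM in the cortex of KO1134, 2242 CPM in that of KO1308 and 3578 CPM in that of WT1101. All 6 of its genes were lowest in KO1134 and highest in WT1101. *Rag1*, which cuts receptor genes for rearrangement, had 50.6, 407 and 691 CPM in the cortex of KO1134, KO1308 and WT1101. The 3 CD3 genes, present in all T lineage cells, had 622, 966 and 1487 CPM. KO cortex, that of KO1134 above all, thus had lower levels of T lineage and of immature thymocyte genes than WT cortex. The part of this in the values of the members was not tested, other than by the counts per CD3 UMI given further on. Zones were also called relative to each section's own marker shares, which differed. Medullary epithelial genes had 181, 430 and 105 CPM over all tissue of KO1134, KO1308 and WT1101. In cortex 100 to 200 µm from the border with medulla they had 67.7, 274 and 40.2 CPM. The zones are therefore not alike in absolute levels, and the part of this in the values of the members was not tested.

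Of the egress genes, *S1pr1* was low in cortex and higher in medulla in every section. Its level in cortex was 13.8 CPM (12.0 to 15.8) in KO1134, 13.8 CPM (11.5 to 16.5) in KO1308 and 9.56 CPM (8.43 to 10.8) in WT1101. Its level in medulla was 33.9 CPM (29.8 to 38.4), 46.6 CPM (40.1 to 53.7) and 55.2 CPM (49.7 to 61.2). The order of the sections was therefore opposite in the 2 zones, with WT lowest in cortex and highest in medulla, although the medulla intervals of KO1308 and WT1101 overlapped. The medulla over cortex ratio was 2.46 (2.04 to 2.97) in KO1134, 3.37 (2.67 to 4.26) in KO1308 and 5.77 (4.91 to 6.80) in WT1101. Across 4 parts into which each section was divided, the ratio ran from 1.46 to 3.18 in KO1134, from 2.54 to 6.79 in KO1308 and from 5.50 to 6.01 in WT1101, so the KO1308 parts reached past those of WT. The highest level of *S1pr1* in the study was 347 CPM (332 to 363), in the B-cell zone of KO1134, 10.2 times (8.96 to 11.7) that in its medulla. In the B-cell zone of KO1308 it was 85.1 CPM (67.0 to 107), 1.83 times (1.38 to 2.40) that in its medulla.

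*Klf2*, the transcription factor of quiescent and emigrating T cells, showed the widest difference between sections in its medulla over cortex ratio. It had 83.4 CPM (78.9 to 88.1) in the cortex of KO1134, 55.1 CPM (50.4 to 60.2) in that of KO1308 and 25.4 CPM (23.5 to 27.4) in that of WT1101. In medulla it had 93.6 CPM (86.7 to 101), 148 CPM (136 to 160.2) and 159 CPM (149.5 to 169). No cortex intervals overlapped, whereas the medulla levels of KO1308 and WT1101 did. The medulla over cortex ratio was 1.12 (1.02 to 1.23) in KO1134, 2.68 (2.38 to 3.03) in KO1308 and 6.26 (5.68 to 6.90) in WT1101. The ranges over the 4 parts did not overlap between sections, at 1.04 to 1.32, 2.19 to 3.64 and 5.51 to 6.91. In KO1134, *Klf2* was therefore nearly as high in cortex as in medulla. The level in the B-cell zone was 242 CPM (229 to 255) in KO1134 and 135 CPM (112 to 162) in KO1308, above the medulla by 2.58 times in the first and at 0.913 times (0.744 to 1.11) the medulla in the second.

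*Cd69*, which opposes S1PR1 at the cell surface, was highest in WT in both zones. Its level in cortex was 20.6 CPM (18.4 to 23.0) in KO1134, 17.9 CPM (15.3 to 20.9) in KO1308 and 43.9 CPM (41.4 to 46.5) in WT1101. In medulla it was 25.8 CPM (22.3 to 29.8), 30.7 CPM (25.5 to 36.6) and 103 CPM (95.4 to 111). The KO sections overlapped each other in both zones, and neither overlapped WT. The medulla over cortex ratio was 1.25 (1.04 to 1.51), 1.71 (1.34 to 2.18) and 2.35 (2.13 to 2.58) in KO1134, KO1308 and WT1101, and it was above 1 in all 4 parts of every section. The B-cell zone had 35.8 CPM (31.0 to 41.1) in KO1134 and 49.9 CPM (36.3 to 67.0) in KO1308, below the WT medulla in both.

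*Ccr7*, the receptor for the medullary ligands CCL19 and CCL21, had the highest medulla over cortex ratio of the members in every section. In cortex it had 16.7 CPM (14.7 to 18.8) in KO1134, 14.8 CPM (12.4 to 17.6) in KO1308 and 13.0 CPM (11.6 to 14.4) in WT1101. In medulla it had 113 CPM (105 to 121), 119 CPM (108 to 129.7) and 172 CPM (162 to 182). The sections lay close together in cortex, and in medulla WT was above both KO sections, which overlapped each other. The ratio was 6.76 (5.87 to 7.82), 8.0 (6.59 to 9.76) and 13.2 (11.7 to 15.0), higher than that of 99.3%, 99.9% and 99.6% of genes in KO1134, KO1308 and WT1101. The parts of KO1134 ran from 3.09 to 13.2 and those of KO1308 from 5.29 to 11, both reaching into the WT range of 10.3 to 16.1. The B-cell zone had 234 CPM (222 to 247) in KO1134, 2.08 times its medulla, and 124 CPM (102 to 149) in KO1308, 1.04 times its medulla.

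*Ccr4*, the receptor for CCL17 and CCL22, was sparsely detected, which limits what can be said of it. It had 30 UMIs in cortex and 20 in medulla of KO1134, 40 and 13 in KO1308, and 105 and 30 in WT1101. The levels were 1.97 CPM (1.33 to 2.81) and 2.78 CPM (1.70 to 4.29) in KO1134, 4.43 CPM (3.16 to 6.03) and 3.22 CPM (1.71 to 5.51) in KO1308, and 3.92 CPM (3.21 to 4.75) and 4.52 CPM (3.05 to 6.46) in WT1101. Every medulla over cortex interval held 1, so no difference between the zones was detectable at this depth. The B-cell zone of KO1134 held 3 UMIs, and that of KO1308 held 0, which allows a level of up to 3.40 CPM.

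*Ccr9* and *Cxcr4*, the receptors for the cortical ligands, were lower in medulla than in cortex in CPM in every section. Counted per UMI of the CD3 genes, the medulla over cortex ratio of *Ccr9* was 0.995 in WT1101 and 1.02 in KO1308. That of *Cxcr4* was 0.928 and 1.04. In KO1134 both genes stayed lower in medulla on that scale. *Ccr9* had 113 CPM (107 to 118) in the cortex of KO1134, 179 CPM (171 to 188) in that of KO1308 and 236 CPM (230.2 to 242) in that of WT1101. In medulla it had 61.4 CPM (55.8 to 67.4), 130.0 CPM (119 to 142) and 202 CPM (191 to 213). KO1134 was lowest and WT highest in both zones, with no overlap between any of the sections. The medulla over cortex ratio of *Ccr9* was 0.545 (0.490 to 0.606), 0.726 (0.657 to 0.801) and 0.855 (0.806 to 0.907) in KO1134, KO1308 and WT1101. The lowest levels of *Ccr9* were in the B-cell zones, at 27.6 CPM (23.5 to 32.3) in KO1134 and 62.4 CPM (47.0 to 81.3) in KO1308.

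*Cxcr4*, which also retains early thymocytes in cortex, had 141 CPM (135 to 147) in the cortex of KO1134, 143 CPM (135 to 151) in that of KO1308 and 196 CPM (191 to 201) in that of WT1101. In medulla it had 96.5 CPM (89.5 to 104), 106 CPM (96.4 to 117) and 156 CPM (147 to 166). The KO sections overlapped each other in both zones and lay below WT. Its ratio was 0.687 (0.629 to 0.748), 0.743 (0.664 to 0.829) and 0.797 (0.745 to 0.852), the smallest spread between sections of any member past the minimum count. In the B-cell zone it had 101 CPM (92.9 to 109.7) in KO1134 and 143 CPM (119 to 170.3) in KO1308. Both receptors had a ratio below 1 in all 4 parts of all 3 sections, whereas *S1pr1*, *Klf2*, *Ccr7* and *Cd69* had a ratio above 1 in all of them.

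**Figure D2:**
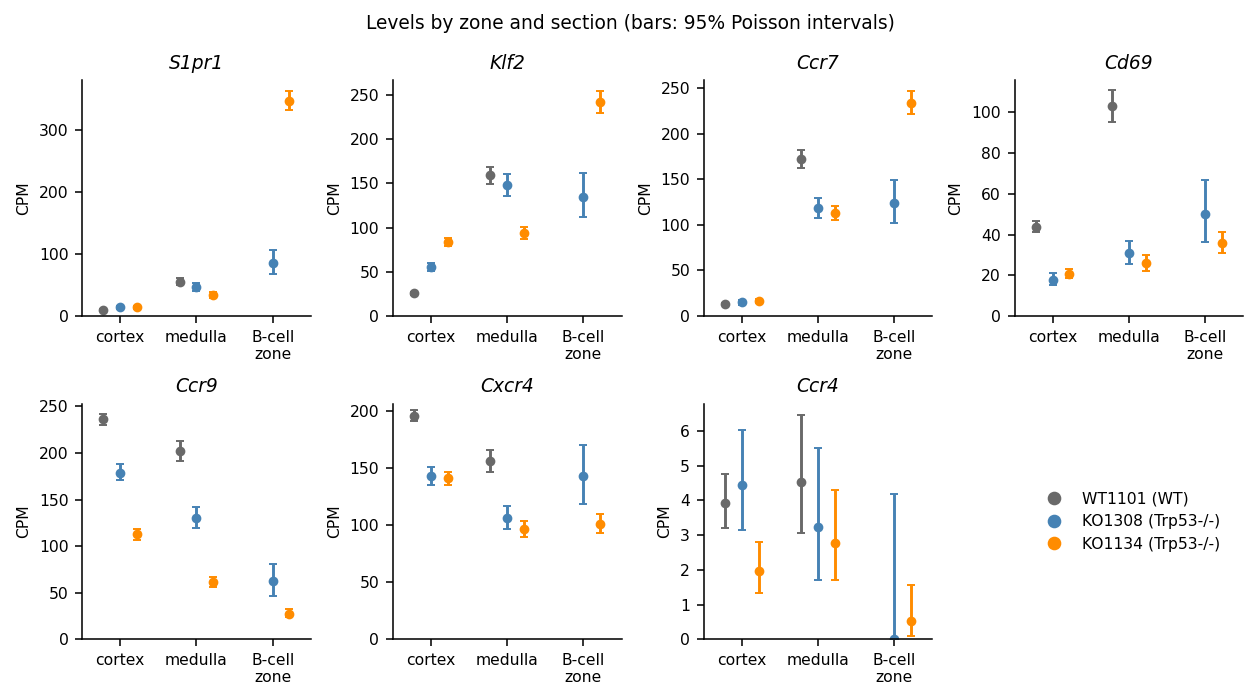
CPM of each member (y axis, starting at 0) in cortex, medulla and B-cell zone (x axis) of the 3 sections, with points for sections and bars for exact 95% Poisson intervals. S1pr1, Klf2 and Ccr7 were highest in the B-cell zone of KO1134, and Cd69 was highest in WT medulla (103 CPM).

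Over all genes with at least 100 UMIs in cortex and medulla together, 16.7% were at least 1.5-fold higher in medulla in KO1134, 16.6% in KO1308 and 17.7% in WT1101. Of the members past this minimum, 2 of 6 were so in KO1134 (*S1pr1* and *Ccr7*) and 4 of 6 in KO1308 and 4 of 7 in WT1101 (*S1pr1*, *Klf2*, *Ccr7* and *Cd69*). The members' median ratio was 1.19 in KO1134, 2.20 in KO1308 and 2.35 in WT1101, beside 0.987, 0.981 and 1.02 over all genes. Lower in medulla by 1.5-fold was *Ccr9* in KO1134, with 11.6% of all genes, and no member in KO1308 (12.4%) or WT1101 (7.05%). *S1pr1* and *Ccr7* passed in all 3 sections, as did 9.64% of the 12219 genes past the minimum in every section. With cortex defined by immature thymocyte genes in place of epithelial genes, the *S1pr1* ratio of KO1134 was 1.15 (0.980 to 1.35) and no longer passed, and its *Ccr7* ratio was 4.06. No member was 1.5-fold lower in all 3, as 3.49% of genes were, and 2 members (*Ccr9* and *Cxcr4*) had a ratio below 1 in all 3, as did 31.1%. The ratio was lower in KO1308 than in WT1101 and lower again in KO1134 for 6 members, *Ccr4* with its few UMIs being the exception, and for 25.7% of the 12219 genes.

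The ratio of a KO section divided by that of WT was 0.426 (0.334 to 0.544) in KO1134 and 0.583 (0.442 to 0.769) in KO1308 for *S1pr1*. It was 0.179 (0.157 to 0.205) and 0.429 (0.368 to 0.50) for *Klf2*, 0.511 (0.424 to 0.615) and 0.604 (0.482 to 0.757) for *Ccr7*, and 0.535 (0.436 to 0.656) and 0.730 (0.567 to 0.939) for *Cd69*. These zone differences were thus smaller in both KO sections. Some marker lists of other medulla cells moved the same way. The ratio over that of WT was 0.637 in KO1134 and 0.346 in KO1308 for the medullary epithelial genes that defined the zone. It was 0.450 and 0.616 for the dendritic cell genes and 0.702 and 0.886 for macrophage genes. Other lists higher in medulla moved little, with 0.978 and 1.03 for B cell genes and 0.874 and 0.965 for fibroblast genes. The part of these cells in the result was not tested. A smaller difference was common to many medulla genes, as 68.5% of 2098 genes that were at least 1.5-fold higher in WT medulla had a lower ratio in both KO sections. Taken singly, 77.3% had a lower ratio in KO1134 and 80.9% in KO1308, with medians of 0.749 and 0.794 of the WT ratio. These genes were picked by their WT ratio, so the medians are a description only. *Klf2* lay furthest from these medians among the members.

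**Figure D3:**
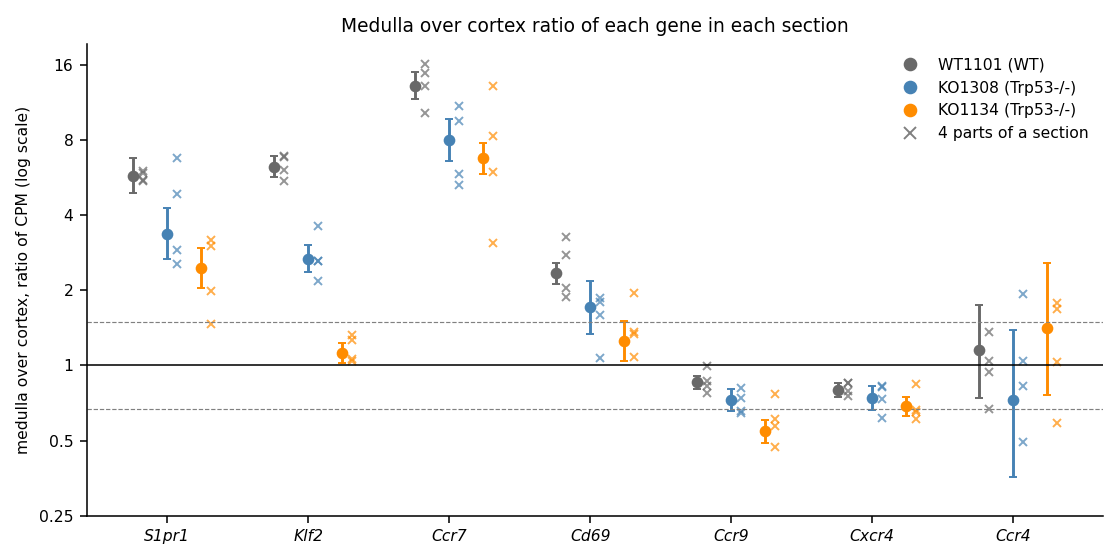
Medulla over cortex ratio of CPM (y axis, log scale) for each member (x axis) in each section, with circles and bars for the ratio and its exact 95% interval, crosses for 4 parts of the section, and dashed lines at 1.5-fold either way. The ratios of S1pr1, Klf2, Ccr7 and Cd69 lay above 1 and were highest in WT1101, and those of Ccr9 and Cxcr4 lay below 1.

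Levels were also taken by distance from the border between the zones. As zones were called from 7 × 7 bins, the border is blurred, and a step cannot be told from a slope. In WT1101 the medullary epithelial genes, which defined medulla, fell from 554 CPM in medulla over 100 µm from the border to 141 CPM within 50 µm of it. They had 78.4 CPM within 50 µm on the cortex side. In WT1101, *Ccr7* had 253 CPM (236 to 271) in medulla over 100 µm from the border, 63.4 CPM (51.7 to 76.8) within 50 µm of it on the medulla side, 26.5 CPM (19.8 to 34.6) within 50 µm on the cortex side and 7.86 CPM (5.92 to 10.2) in cortex over 400 µm away. *Ccr7* also fell from deep medulla to deep cortex in the KO sections, from 152 to 10.4 CPM in KO1134 and from 157 to 5.22 CPM in KO1308. Within the cortex of KO1134 the fall was not steady. *Ccr7* had 18.9 CPM there within 50 µm of the border and 19.2 CPM at 200 to 400 µm from it. *S1pr1* ran from 73.1 CPM (64.0 to 83.0) in the deep medulla of WT1101 to 6.86 CPM (5.06 to 9.10) in its deep cortex, and from 40.4 to 5.75 CPM in KO1134. In cortex 50 to 100 µm from the border it had 13.5 CPM (9.63 to 18.5) in WT1101 and 25.6 CPM (17.0 to 36.9) in KO1308, intervals that overlapped.

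*Klf2* differed between sections in its course with distance. Within WT1101 it ran from 208 CPM (193 to 225) in deep medulla to 41.4 CPM (33.0 to 51.4) just inside cortex and 21.6 CPM (18.3 to 25.3) in deep cortex. In KO1308 it ran from 176 CPM (159.8 to 193) to 88.2 CPM (68.8 to 111) and 33.6 CPM (24.5 to 44.9). In KO1134 it stayed between 74.8 and 105 CPM in all 8 distance classes, and deep cortex alone had 74.8 CPM (64.7 to 86.1), above the deep cortex of both other sections. The cortex level of *Klf2* in KO1134 was therefore not restricted to bins next to medulla. *Ccr9* in WT1101 was highest within 50 µm of the border on the medulla side, at 295 CPM (269 to 322), and lowest in deep medulla, at 149 CPM (136 to 163). The highest level overlapped that within 50 µm on the cortex side, at 269 CPM (247 to 293). *Ccr9* was lowest in deep medulla in the KO sections too, at 49.4 CPM (42.9 to 56.6) in KO1134 and 102 CPM (89.6 to 115) in KO1308. *Cd69* in WT1101 was highest in medulla 50 to 100 µm from the border, at 123 CPM (108 to 141), and reached 32.2 CPM (28.1 to 36.7) in deep cortex, whereas in both KO sections it stayed at or below 34.0 CPM in all classes.

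**Figure D4:**
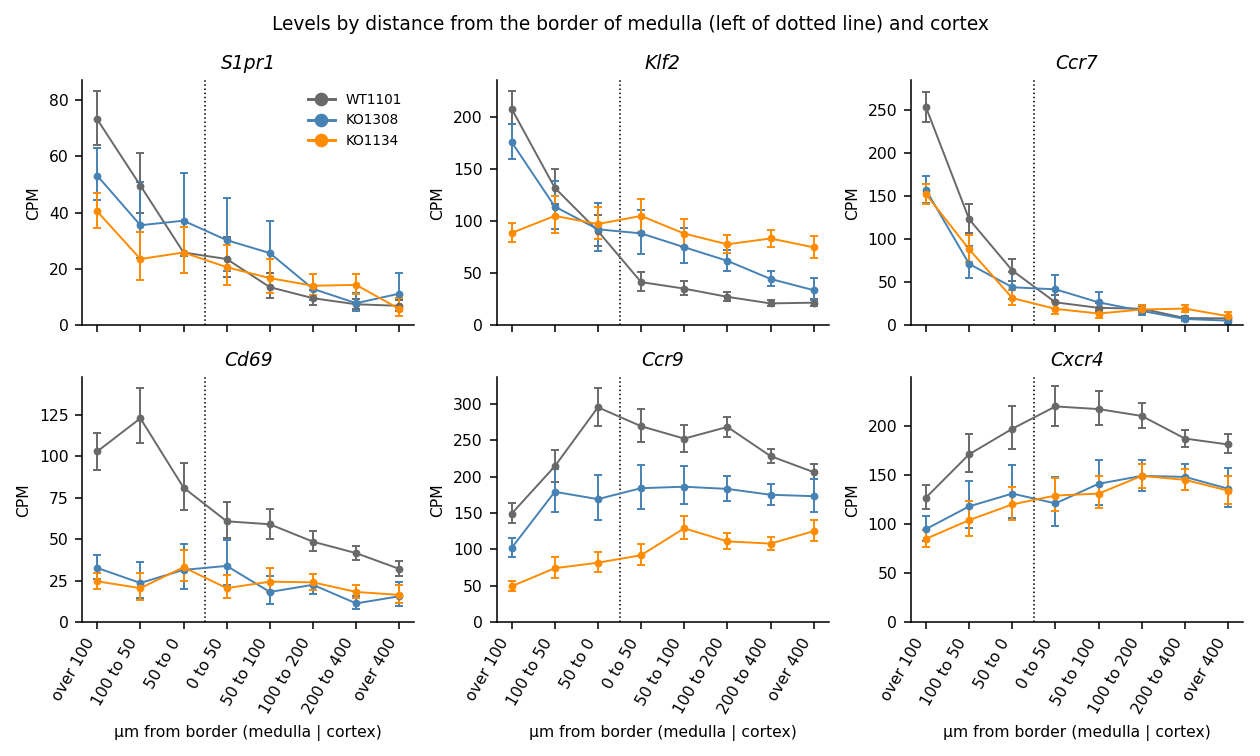
CPM (y axis, starting at 0) of 6 members by distance in µm from the border of medulla and cortex (x axis, medulla left of the dotted line), with a line for each section and bars for exact 95% Poisson intervals. Klf2 ran from 208 to 21.6 CPM in WT1101 and stayed between 74.8 and 105 CPM in KO1134.

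Because *S1pr1* and *Klf2* are also made by endothelium, and *Ccr7*, *Cxcr4* and *Cd69* by B cells and other leukocytes, markers of other cells are given beside these ratios. The 6 endothelial genes summed to 103 CPM in cortex and 150.2 CPM in medulla of KO1134, 148 and 216 CPM in KO1308, and 121 and 162 CPM in WT1101. The 3 B cell genes summed to 53.8 and 154 CPM, 63.2 and 191 CPM, and 29.0 and 85.1 CPM in the same order. The 5 dendritic cell genes summed to 91.8 and 287 CPM, 67.8 and 291 CPM, and 30.8 and 214 CPM, and *Ccr7* is also made by mature dendritic cells. All genes of these 3 lists were detected in both zones of every section. In bins with no endothelial UMI the *S1pr1* ratio was 2.53, 3.07 and 6.43 in KO1134, KO1308 and WT1101, and the *Klf2* ratio was 1.13, 2.57 and 6.26, close to the values in all bins. In bins with no B cell UMI the *Ccr7* ratio was 7.81, 7.77 and 13.3. In bins with a CD3 UMI and no B cell UMI the *S1pr1* ratio was 2.41, 3.56 and 5.53. Since a bin without such a UMI may still hold these cells, and bins without dendritic cell UMIs were not taken separately, their part in the result was not tested further.

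For KO beside WT, the cortex is taken first. Of the 7 members, 1 was at least 1.5-fold higher in KO1134 cortex than in WT cortex (*Klf2*) and 3 were lower (*Cd69*, *Ccr9* and *Ccr4*), beside 23.4% and 20.4% of all genes. In KO1308 cortex 1 was higher (*Klf2*) and 1 lower (*Cd69*), beside 24.9% and 10.9%. Only *Klf2* was higher in both KO sections, by 3.28 times (2.99 to 3.61) in KO1134 and 2.17 times (1.93 to 2.44) in KO1308, as were 15.8% of all genes. Only *Cd69* was lower in both, at 0.469 (0.413 to 0.532) and 0.408 (0.344 to 0.482) of WT, as were 5.65%. *S1pr1* was at 1.44 (1.19 to 1.74) and 1.45 (1.16 to 1.80) of WT, just under the limit in both. *Ccr9* was at 0.477 (0.452 to 0.503) and 0.759 (0.718 to 0.802), and *Cxcr4* at 0.718 (0.683 to 0.755) and 0.731 (0.687 to 0.777). With the KO sections averaged, 1 member was higher and 2 lower, beside 26.4% and 11.1% of genes.

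In medulla no member was higher by 1.5-fold in KO1134 or in KO1308, beside 14.5% and 18.4% of all genes. All 6 members past the minimum count were lower in KO1134, beside 17.2% of all genes, and 2 were lower in KO1308 (*Cd69* and *Ccr9*), beside 14.3%. *Cd69* was at 0.251 (0.212 to 0.295) and 0.298 (0.244 to 0.361) of WT in KO1134 and KO1308, and *Ccr9* at 0.304 (0.273 to 0.339) and 0.644 (0.581 to 0.713). These 2 members were lower in both in CPM, as were 6.84% of genes, but *Ccr9* was not when counted per CD3 UMI. *S1pr1* was at 0.614 (0.520 to 0.724) and 0.844 (0.704 to 1.01), *Klf2* at 0.589 (0.534 to 0.649) and 0.930 (0.840 to 1.03), *Ccr7* at 0.656 (0.599 to 0.719) and 0.691 (0.620 to 0.770), and *Cxcr4* at 0.618 (0.561 to 0.682) and 0.681 (0.607 to 0.762). The intervals of *S1pr1* and *Klf2* in KO1308 held 1. Averaged over KO, 3 members were lower and 0 higher, beside 11.4% and 18.3% of genes. Both KO sections share the same WT section, so these values are not independent of each other.

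**Figure D5:**
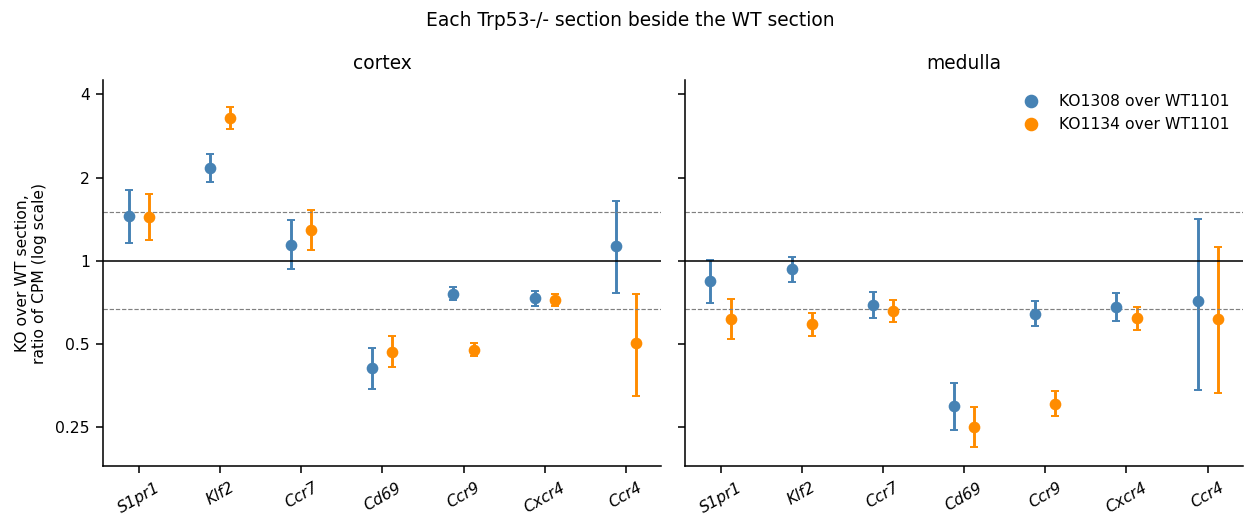
Ratio of CPM of each KO section over WT1101 (y axis, log scale) for each member (x axis) in cortex (left) and medulla (right), with bars for exact 95% intervals and dashed lines at 1.5-fold either way. Klf2 was above the upper line in cortex and Cd69 below the lower line in both zones in both KO sections.

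Counts per 100 UMIs of the 3 CD3 genes set the members beside the T lineage content of a zone. On this scale *Cd69* in medulla had 4.48 UMIs in KO1134, 4.47 in KO1308 and 8.06 in WT1101, so it was still lower in both KO sections. In cortex it had 3.31, 1.86 and 2.95, and the KO sections lay on either side of WT. *Klf2* in cortex had 13.4, 5.71 and 1.71, and *S1pr1* in cortex 2.21, 1.43 and 0.643, both higher in KO. In medulla, where WT was highest in CPM, it was lowest on this scale for both genes. *S1pr1* in medulla had 5.88, 6.77 and 4.32, its KO mean over WT going from 0.729 in CPM to 1.46. *Klf2* in medulla had 16.2, 21.5 and 12.4, going from 0.760 to 1.52. *Ccr9* in medulla had 10.7, 18.9 and 15.8, the KO sections lying on either side of WT, and its KO mean over WT went from 0.474 to 0.936. *Ccr9* in cortex had 18.1, 18.6 and 15.9, and the KO mean over WT changed direction, from 0.618 in CPM to 1.15 per CD3 UMI. *Cxcr4* in medulla had 16.8, 15.5 and 12.2, and its KO mean over WT changed direction from 0.650 to 1.32. *Ccr7* in medulla had 19.6, 17.3 and 13.4, and in cortex 2.68, 1.54 and 0.872, higher in KO in both zones on this scale, whereas in CPM its medulla level was lower in KO. CD3 UMIs per cell need not be equal at all stages, so this scale is not a count of cells.

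In the B-cell zone of KO1134, 3 of 6 members were at least 1.5-fold above medulla (*S1pr1*, *Klf2* and *Ccr7*) and 1 below (*Ccr9*), beside 7.24% and 26.7% of all genes. In KO1308, 2 were above (*S1pr1* and *Cd69*) and 1 below (*Ccr9*), beside 7.43% and 21.0%. Adipocyte genes summed to 1059 CPM in the zone of KO1134, 5.81 times its medulla, and to 233 CPM in that of KO1308, 1.06 times its medulla, and their part in these values was not tested. The zone of KO1134 had 884 CPM of CD3 genes, 819 CPM of B cell genes and 258 CPM of endothelial genes, and its immature thymocyte genes summed to 280.0 CPM. It thus held T lineage as well as B lineage UMIs. *S1pr1* had 346 CPM (308 to 387) in its 332 bins with a CD3 and no B cell UMI, 279 CPM (228 to 337) in its 141 bins with a B cell and no CD3 UMI, and 372 CPM (354 to 391) in its 1124 bins with both, whose median depths were 2705, 2762 and 3599 UMIs. In medulla of the same section, bins with a CD3 and no B cell UMI had 29.2 CPM (24.0 to 35.3). The difference between the zones was also present among bins with T lineage UMIs and no B cell UMI. Such bins may still hold B cells, and the part of B cells in the difference was not tested. *Ccr7* in the same 3 classes of bins of the B-cell zone had 241 CPM (209 to 275), 188 CPM (147 to 238) and 248 CPM (233 to 264). The classes of KO1308 held few bins, and *S1pr1* had 130.4 CPM (82.6 to 196) in the 79 bins with a CD3 and no B cell UMI.

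Of 42 other genes of these pathways, the ligands and the S1P genes are given with values. At least 100 UMIs were present for 37, 37 and 38 of them, and 15, 14 and 14 were 1.5-fold higher in the medulla of KO1134, KO1308 and WT1101, whereas 2, 0 and 2 were lower. Over all genes 16.7%, 16.6% and 17.7% were higher and 11.6%, 12.4% and 7.05% lower. *Ccl21a*, the ligand of CCR7, had 115 CPM in cortex and 1228 CPM in medulla of KO1134, 117 and 745 CPM in KO1308, and 19.6 and 459 CPM in WT1101. It was higher in both KO sections in both zones, in the direction opposite to *Ccr7* in medulla in CPM. Per 100 CD3 UMIs, *Ccr7* in medulla was higher in both KO sections, at 19.6 and 17.3 beside 13.4 in WT1101. Its reads can be shared with near-identical *Ccl21* copies, so its own part is uncertain. *Ccl19* had 8.13 and 62.4 CPM in KO1134, 7.41 and 30.0 CPM in KO1308, and 1.61 and 22.6 CPM in WT1101. *Ccl22*, the ligand of CCR4, had 35.3, 40.1 and 69.7 CPM in the medulla of KO1134, KO1308 and WT1101, and *Ccl17* had 14.6, 15.4 and 14.2 CPM.

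In CPM, the ligands of the cortical receptors did not follow the receptors between sections. *Ccl25*, the ligand of CCR9, had 740.0, 643 and 760.1 CPM in the cortex of KO1134, KO1308 and WT1101, and KO cortex was at 0.974 (0.951 to 0.996) and 0.847 (0.822 to 0.872) of WT. *Cxcl12*, the ligand of CXCR4, had 240.0, 208 and 161 CPM in cortex and 153, 156 and 86.3 CPM in medulla, and KO medulla was at 1.78 (1.60 to 1.97) and 1.81 (1.62 to 2.03) of WT. Per 100 CD3 UMIs, *Cxcr4* in cortex had 22.6, 14.8 and 13.2 in KO1134, KO1308 and WT1101. In medulla it had 16.8, 15.5 and 12.2. *Ccr9* in cortex had 18.1, 18.6 and 15.9 on that scale. The CD3 genes were lowest in the cortex of KO1134 and highest in that of WT1101, which by itself raises KO values on this scale. The ligands are given in CPM only, so the order of receptor and ligand cannot be compared on it. Among 7 S1P handling genes, *Spns2*, which exports S1P from endothelium, was higher in medulla in all 3 sections, with ratios of 2.35, 2.46 and 2.98, and had 11.3, 13.9 and 7.24 CPM in medulla. *Sgpl1*, the lyase that destroys S1P, had 346, 329 and 268 CPM in medulla and 295, 257 and 232 CPM in cortex. The kinase gene *Sphk1* had 10.7, 12.2 and 4.56 CPM in cortex and was higher in both KO sections there, while *Sphk2* had 58.1, 37.2 and 52.5 CPM. *Plpp3*, a lipid phosphatase that removes extracellular S1P, had 63.9, 45.6 and 33.0 CPM in medulla.

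The regulators and targets of the egress programme that share an activator or a partner with the members included *Foxo1*, *Itgb7* and *Il7r*. Each KO section had at least 1.5 times the WT cortex level of *Itgb7* and of *Il7r*. *Il7r*, the interleukin-7 receptor of early and of mature T cells, had 312, 103 and 59.3 CPM in the cortex of KO1134, KO1308 and WT1101, and *Itgb7* had 66.7, 21.4 and 12.9 CPM. Both genes had the order of *Klf2* in cortex, highest in KO1134 and lowest in WT1101. *Foxo1* had 30.6, 49.1 and 28.9 CPM and did not have that order. The medulla over cortex ratio of *Il7r* was 0.995, 2.26 and 3.43 in KO1134, KO1308 and WT1101.

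The remaining lists are given by counts. Of 7 signalling and motility genes, 0 were higher in KO1134 medulla or KO1308 medulla and 4 were lower in each, beside 14.5% and 18.4% of all genes higher and 17.2% and 14.3% lower. *Coro1a*, an actin regulator needed for egress, was at 0.532 (0.517 to 0.548) and 0.448 (0.431 to 0.466) of WT there. Of 8 other homing receptors, 5 passed the minimum in medulla and 3 were higher in both KO sections, among them *Cxcr3* at 6.39 (4.90 to 8.46) and 5.58 (4.19 to 7.51) of WT and *Gpr183* at 1.61 (1.29 to 2.02) and 2.14 (1.68 to 2.72). Of 6 adhesion genes, 1 was higher and 1 lower in both. Of 4 other S1P receptors, 3 passed the minimum and none was higher or lower in both. Over all 42 genes, 8 of the 37 past the minimum were higher in the medulla of both KO sections and 5 lower, beside 10.1% and 6.84% of all genes, and 10 of 38 were higher and 1 lower in cortex, beside 15.8% and 5.65%.

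Likeness of pattern was measured by Pearson's r of log2 CPM with a pseudocount of 1 over the 8 zones of all sections, among 12428 genes. These points share sections, depth and zone definitions, and high values of r are common over so few points. The most alike were *Klhdc1* (0.984), *Stk10* (0.983) and *Add3* (0.980) for *S1pr1*, and *Arl2bp* (0.966), *Nckipsd* (0.962) and *Gm20559* (0.959) for *Klf2*. For *Cd69* they were *Zfp281* (0.959), *Nab2* (0.951) and *Ube2q1* (0.932), and for *Ccr7* *Pkd1* (0.974), *Gm4876* (0.972) and *Retreg1* (0.963). For *Ccr9* they were *Pcm1* (0.985), *Nebl* (0.984) and *Ncbp2* (0.984), for *Cxcr4* *Sertad3* (0.979), *Syncrip* (0.975) and *Lsm14a* (0.974), and for the sparse *Ccr4* *Gm15642* (0.983), *Zfyve1* (0.981) and *Trp53bp2* (0.980). Among the members, *S1pr1*, *Klf2* and *Ccr7* had r of 0.878 to 0.886 with each other, and *Ccr9* and *Cxcr4* had 0.730. *S1pr1* and *Ccr9* had -0.787, and *Cd69* had 0.355 with *S1pr1*.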

How the data were processed

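Thymus sections of 2 KO mice and a WT mouse were analysed by spatial transcriptomics. Reads were mapped to GRCm38 and counted by the authors with STAR and BSTMatrix. The deposited values are raw UMI counts, one whole number for each gene in each spot, beside spot positions and gene names. Spots lie 4.8 µm apart. Their removal of folded areas, images and cell annotation were not used here.

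Spots were added up over squares of 27 µm. Bins with at least 300 genes and at most 30% mitochondrial UMIs, in connected groups of at least 200 bins, were kept. Marker UMIs were summed over 7 × 7 bins. Medulla had a medullary epithelial share of at least 1.5 times the section's and above the cortical share in the same unit, the B-cell zone more B cell than thymus gene UMIs, and cortex a cortical share of at least 0.75 times the section's and above the medullary share. CPM are UMIs of a gene per 1000000 UMIs of the zone. Intervals were exact Poisson for CPM and exact conditional binomial for ratios. A ratio was counted from 1.5-fold with at least 100 UMIs in both zones or sections together. For a KO mean over WT, CPM of the KO sections were averaged. The limit given for a count of 0 is 3 UMIs.

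All members are named, and pathway genes by role, counts or the 3 most alike patterns. The other genes with values were chosen after their values were seen. A gene of the pathway lists is counted among them but not reported here. The members, lists and tests were chosen with earlier results of these data known. Alternatives covered bin width, gene minimum, window, zone limits and order, genes defining cortex, denominator, depth and left-out sections, and 3 were added after seeing the data. Computations were tested on simulated data. The software was pandas 2.3.3, scipy 1.17.1, numpy 2.4.6 and matplotlib 3.10.9 under Python 3.11.15.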

Additional observations from a re-analysis of the deposited data

Results flagged for a closer look

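Tissue bins that met the limits of no zone, which no comparison used, had higher levels of *S1pr1*, *Klf2* and *Ccr7* in the KO sections than in the WT section. *Cd69*, *Ccr9* and *Cxcr4* were lower there in both KO sections. The share of all genes that were higher or lower was not taken for these bins. *S1pr1* had 151 CPM in these bins of KO1134 and 41.8 CPM in those of KO1308, beside 13.1 CPM in WT1101. *Klf2* had 147 and 106 CPM, beside 52.7 CPM, and *Ccr7* had 110.0 and 44.4 CPM, beside 25.4 CPM. These bins had 124, 113 and 44.4 CPM of B cell genes and 240.2, 279 and 139.8 CPM of endothelial genes in KO1134, KO1308 and WT1101, while adipocyte genes summed to 4614, 4971 and 87.6 CPM and fibroblast genes to 469, 334 and 183 CPM. The part of these in the levels was not tested.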

How the results depend on the processing

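The counts of members under 16 planned and 3 added settings stayed within 1.5 times in 114 cases and moved in 13. Of single ratios, 534 moved by less than the spread, 87 by more and 2 reversed, that is, were counted as changed by 1.5-fold in the report and here changed direction. Where they moved, the cause was not tested. Members higher in KO cortex numbered 2 in place of 1 with bins of 50 µm, with cortex defined by immature thymocyte genes, without ribosomal, immunoglobulin, mitochondrial and haemoglobin genes in the denominator, with bins thinned to 500 UMIs, and in bins with no endothelial UMI. Per CD3 UMI, 3 were higher and 0 lower in KO cortex, and 1 higher and 1 lower in KO medulla, while *Ccr9* in cortex (1.15) and *Cxcr4* in medulla (1.32) reversed. On that scale the KO mean over WT also crossed 1 for ratios not counted as changed, in medulla for *S1pr1* (0.729 to 1.46), *Klf2* (0.760 to 1.52), *Ccr7* (0.674 to 1.37) and *Ccr4* (0.663 to 1.34) and in cortex for *Cxcr4* (0.725 to 1.42) and *Ccr4* (0.815 to 1.47), as did the medulla over cortex ratio in KO1308 for *Ccr9* (0.726 to 1.02), *Cxcr4* (0.743 to 1.04) and *Ccr4* (0.727 to 1.02). Under other settings the only ratios to cross 1 were those of *Ccr4*, which has few UMIs. With stricter zone limits 5 members were lower in KO medulla in place of 3. With cortex defined by immature thymocyte genes, 1 member was higher in the medulla of KO1134 in place of 2, as *S1pr1* had a ratio of 1.15 there.

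Leaving out either KO section gave 1 to 3 members lower and 1 to 1 higher in KO cortex, and 2 to 6 lower and 0 to 0 higher in KO medulla, with 6 when KO1134 alone was used. No paired analysis was possible because nothing in the labels pairs a KO section with the WT section. Depth limits *Ccr4* and the B-cell zone of KO1308, and with 1 WT section and 2 KO sections of different ages, genotype, age, section and permeabilisation time cannot be told apart.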
